A study of Sus scrofa with 16 samples.

Results

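The type I interferon-stimulated antiviral genes are a set of genes that cells switch on together when an interferon receptor is engaged. A list of 38 gene symbols was matched to the gene annotation of the array, and 20 genes had a probe set of their own, out of 6765 such genes in all. For each gene the probe set with the highest mean over the 16 arrays was taken. The other 18 symbols were not analysed here, and 2 of them, IFI27 and RIGI, are other names of genes measured as ISG12(A) and DDX58. Of the 20 genes, 18 were bright enough to be tested, among 4684 tested genes.

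Cells sense viral RNA or DNA through receptors such as RIG-I, make interferon alpha and beta, and release them. The interferon binds the receptor IFNAR1-IFNAR2 on the same and on neighbouring cells, the kinases JAK1 and TYK2 phosphorylate STAT2, which joins IRF9 in the factor ISGF3, and this enters the nucleus and binds the promoters of the stimulated genes. Their products block entry, copying and translation of viruses. In the gut wall, interferon lambda drives much of the same programme in epithelial cells, and resident bacteria are known to keep a low tonic level of it.

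The tissue came from preterm piglets of 2 sows, crosses of Landrace x Large white x Duroc, delivered by caesarean section on gestation day 105. All piglets first received parenteral nutrition with small enteral amounts and then formula through a stomach tube, and tissue was taken on day 5. The antibiotic groups received ampicillin, gentamicin and metronidazole by mouth and into muscle, 2 times a day from birth, and the control groups, which the sample titles call untreated, received saline on the same schedule. Proximal and distal small intestine gave 4 groups of 4 arrays from 9 piglets (5 with antibiotics, 4 controls), and 7 piglets gave both segments, going by the number in the titles read as the animal's.

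Values are GCRMA expression values on a log2 scale, on which 1 unit is a doubling. Over the whole table they ran from a floor of 2.14 to 16.76, and 39.7% lay under 2.5. Between 45.1% and 46.5% of probe sets on an array lay above 5. Each probe set binds with its own strength, so levels are compared between arrays for 1 gene and not between genes. The tissue was bulk gut wall, where fewer cells of a type and less RNA per cell cannot be told apart. The enterocyte markers were high on every array (mean of 9 genes 13.12 to 14.32), and the smooth muscle markers were present too (mean of 5 genes 10.06 to 11.24 in distal controls). As a sign of RNA integrity, 5′ minus 3′ signal on the controls for actin and GAPDH ran from -5.72 (antibiotics distal array 87) to -2.70 (control proximal array 88).

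The saline controls spread widely in this programme. A single control, piglet 92, carried high values of nearly the whole set in both segments. Antibiotics changed 1 of the 18 tested genes by the test across all probe sets, the exonuclease gene ISG20, which fell in distal tissue, where 2.12% of all tested probe sets passed. That call held in 16 of 30 alternative fits, and was lost without each distal array except control 88. The 30 include the same fit read at an adjusted p of 0.10, which had to pass. They also include removals of proximal arrays, which leave the distal difference unchanged. The other 17 genes passed in neither segment.

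**Figure D1:**
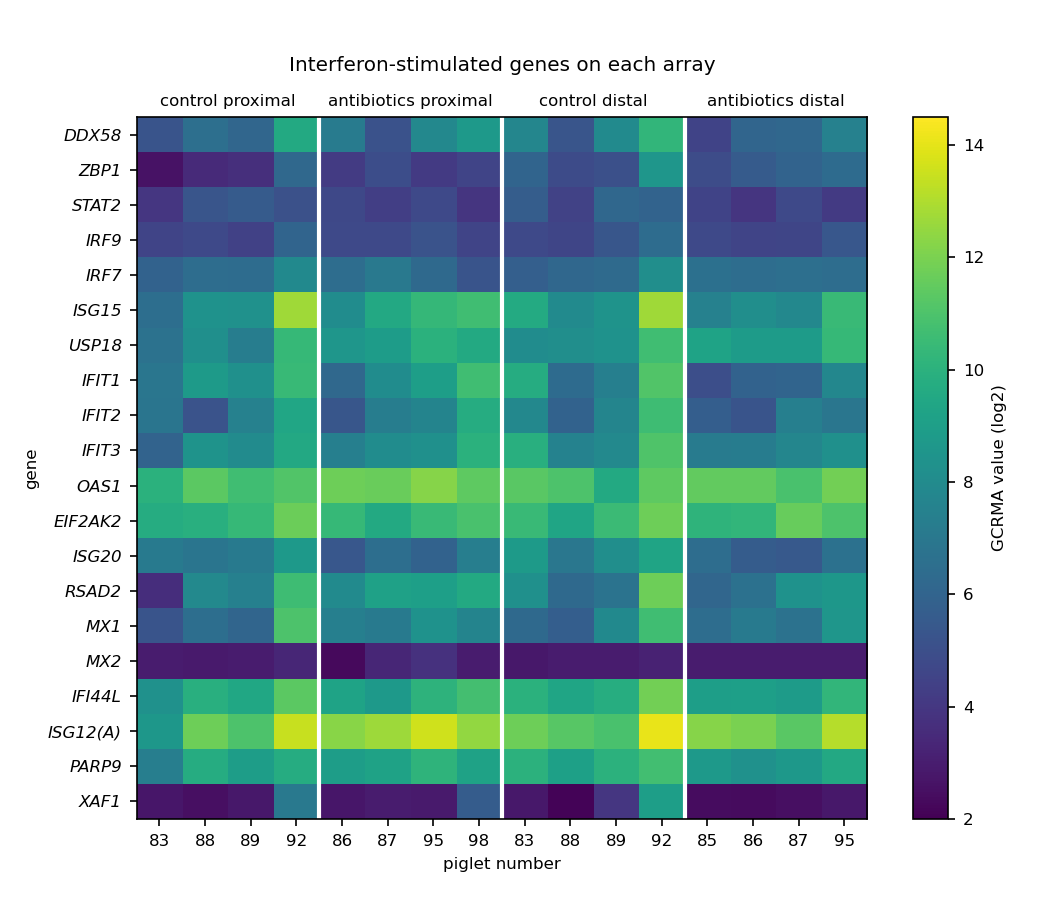
Log2 GCRMA value (colour) of the 20 genes (rows, ordered by role) on each of the 16 arrays (columns, with the piglet number, grouped by treatment and segment). The columns of control piglet 92 are the brightest of the control columns for most genes in both segments, while MX2 is dark throughout and XAF1 is bright only on the arrays of piglet 92 and, more weakly, on antibiotics proximal array 98.

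Both genes left out of the test were dim. MX2, a dynamin-like GTPase that acts at the nuclear pore, lay between 2.31 and 3.78 on the 16 arrays and never above 5, with 1 array under 2.5. The MX2 probe set gave the identical value of 2.97 on 9 of the 16 arrays. All 4 distal antibiotics arrays were among them, so these values do not rank the arrays. Its second probe set was at the floor on 16 of 16 arrays. XAF1, a pro-apoptotic partner of XIAP, lay above 5 on 3 arrays and under 2.5 on 5. Its highest values were 7.05 (proximal) and 9.0 (distal) in control piglet 92, followed by 5.61 on antibiotics proximal array 98. On the other 13 arrays it lay between 2.14 and 3.98, so it was measured well above the floor in 2 piglets.

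No other gene of the set had an array under 2.5, but 3 were low. IRF9, the DNA-binding subunit of ISGF3, lay between 4.42 and 6.42 and above 5 on 5 arrays. STAT2 lay between 3.91 and 6.17 and above 5 on 6 arrays. ZBP1, a sensor of Z-form nucleic acid that triggers cell death, lay between 2.62 and 8.55 and above 5 on 7 arrays. Of the remaining 15 genes, 12 were above 5 on all 16 arrays, and DDX58, IFIT1 and RSAD2 were above 5 on 15 arrays each.

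Among the saline controls the set was unevenly expressed. In proximal tissue array 92 was the highest of the 4 control arrays for 16 of the 18 tested genes (all but OAS1 and STAT2), whereas it was the highest for 24.9% of all tested probe sets. In distal tissue it was the highest for 17 of 18 (all but STAT2), against 17.1% of all tested probe sets. The median excess of piglet 92 over the median of the other 3 controls was 2.03 in proximal and 2.48 in distal tissue (log2), with the widest gaps at 4.92 for MX1 (proximal) and 4.99 for RSAD2 (distal). The same animal was thus high in both of its segments, which are separate samples of 1 piglet and not replicates.

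The low end of the controls was not the same piglet in both segments. Control proximal array 83 was the lowest of its group for 15 of 18 genes (23.8% of all tested probe sets), and control distal array 88 was the lowest for 14 of 18 (26.3%). With antibiotics, distal array 95 was the highest of its group for 14 of 18 genes (31.7%). In proximal tissue the antibiotics arrays 98 and 95 were the highest for 9 and 7 genes (37.6% and 15% of all tested probe sets), and array 86 was the lowest for 9 (16.8%).

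The mean over the 18 tested genes gives 1 value per array. In the proximal controls 83, 88, 89 and 92 it was 6.41, 7.75, 7.60 and 9.73, and with antibiotics (86, 87, 95 and 98) it was 7.57, 7.93, 8.52 and 8.72. In the distal controls 83, 88, 89 and 92 it was 8.45, 7.25, 8.02 and 10.39, and with antibiotics (85, 86, 87 and 95) it was 7.26, 7.37, 7.66 and 8.51. In both segments the 4 antibiotics arrays lay inside the range of the 4 controls, so the groups overlapped fully. The group means were 7.87 ± 1.37 for proximal controls, 8.19 ± 0.53 for proximal antibiotics, 8.53 ± 1.34 for distal controls and 7.70 ± 0.57 for distal antibiotics (SD, n = 4 each).

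Between the segments of 1 piglet this mean moved little, except in piglet 83. Distal minus proximal was 2.04 in control 83, with 17 of 18 genes higher in distal tissue, and -0.50 in control 88, with 3 of 18 higher. It was 0.42 in control 89 (12 of 18) and 0.66 in control 92 (16 of 18). In the antibiotics piglets 86, 87 and 95 it was -0.20 (4 of 18), -0.27 (6 of 18) and -0.01 (10 of 18). Of all tested probe sets between 42% and 61.4% were higher in distal tissue in a given piglet.

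**Figure D2:**
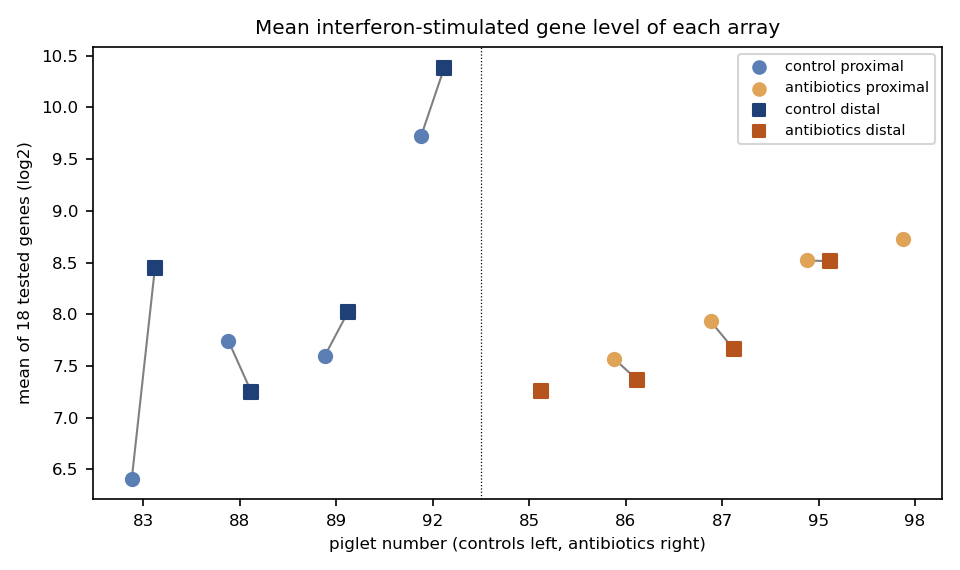
Mean log2 value of the 18 tested genes (vertical axis) on each array, by piglet (horizontal axis, controls left and antibiotics right), with circles for proximal and squares for distal tissue and a line joining the segments of 1 animal. Piglet 92 lies at 9.73 and 10.39, above every other array, and piglet 83 spans 6.41 to 8.45.

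The spread within groups was wider in controls for most genes. The median SD of the 18 genes was 1.46 among proximal controls and 0.66 with antibiotics, against medians of 0.47 and 0.48 over all tested probe sets. In distal tissue it was 1.33 among controls and 0.66 with antibiotics, against 0.38 and 0.32. The SD was larger in controls than with antibiotics for 16 of 18 genes in proximal tissue and for 18 of 18 in distal tissue, whereas this held for 49.9% and 59.8% of all tested probe sets. An SD over 1 was found for 12 of 18 genes in proximal controls (10.2% of all tested probe sets), 13 in distal controls (5.32%), 5 in proximal antibiotics (9.22%) and 5 in distal antibiotics (2.39%).

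RSAD2 had the widest control spread in both segments (SD 2.87 proximal, 2.47 distal). The most even genes in controls were OAS1 in proximal (SD 0.60) and PARP9 in distal tissue (SD 0.67). In distal antibiotics IRF7, the factor that amplifies interferon alpha production, had an SD of 0.08, but its probe set gave the identical value of 6.46 on 4 of the 16 arrays, 2 of them in that group, so this SD is no measure of evenness. Without piglet 92 the median SD of the other 3 controls was 0.79 in proximal and 0.86 in distal tissue (0.46 and 0.39 over all tested probe sets), and 6 genes in each segment had an SD over 1 (11.8% and 6.74% of all tested probe sets). Leaving out that piglet thus lowered the control medians, which remained above the 0.66 of the antibiotics groups.

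**Figure D3:**
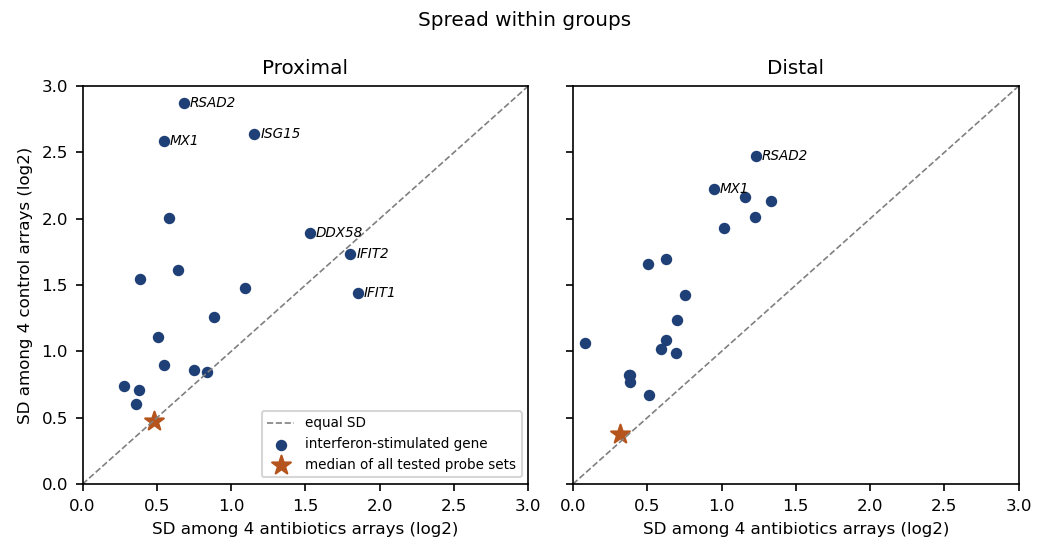
SD of each of the 18 tested genes among the 4 control arrays (vertical axis, log2) against the SD among the 4 antibiotics arrays (horizontal axis, log2), in proximal and distal tissue, with the dashed line at equal SD and a star at the median of all tested probe sets. In distal tissue 18 of 18 genes lie above the line, and in proximal tissue 16 of 18.

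The genes are described below by role, with each gene's arrays in the piglet order used for the means: 83, 88, 89 and 92 for controls in both segments, 86, 87, 95 and 98 for proximal antibiotics, and 85, 86, 87 and 95 for distal antibiotics. Differences are antibiotics minus control in log2, with SE, from limma's moderated test, and p-values carry a Benjamini-Hochberg adjustment for 11538 probe sets.

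Of the sensors, DDX58 encodes RIG-I, which binds uncapped viral RNA. It read 5.25, 6.56, 6.11 and 9.59 in proximal controls and 7.18, 5.14, 7.86 and 8.74 with antibiotics. In distal tissue it read 7.75, 5.32, 7.99 and 10.24 in controls and 4.51, 6.08, 6.17 and 7.51 with antibiotics. The groups overlapped in both segments, with piglet 92 highest in each. The difference was -1.76 (SE 1.06, limma adjusted p = 0.464) in distal and 0.35 (SE 1.06, adjusted p = 0.928) in proximal tissue. A second DDX58 probe set was under 2.5 on 12 arrays and reached its highest value, 7.18, in the distal tissue of piglet 92. ZBP1 differed by -0.42 (SE 0.76, adjusted p = 0.852) in distal and by 0.47 (SE 0.76, adjusted p = 0.855) in proximal tissue.

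STAT2, the ISGF3 subunit that carries the activation domain, was the only tested gene for which piglet 92 was the highest control in neither segment. It read 3.97, 5.29, 5.60 and 5.12 in proximal controls and 4.69, 4.34, 4.74 and 3.91 with antibiotics. In distal tissue it read 5.68, 4.46, 6.17 and 5.99 in controls and 4.53, 3.92, 4.77 and 4.13 with antibiotics, so that control array 88 lay among the treated arrays and the other 3 controls above them. The distal difference was -1.24 (SE 0.39, 95% interval -2.07 to -0.40) and missed the threshold (limma adjusted p = 0.122). It passed without control distal array 88 (-1.61, adjusted p = 0.0269). IRF9 and IRF7 (5.25 to 8.16) differed by -0.46 (SE 0.40, adjusted p = 0.629) and -0.07 (SE 0.51, adjusted p = 0.968) in distal tissue.

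ISG15, a ubiquitin-like protein that is joined to other proteins and also secreted, was far higher in piglet 92 than in the other controls, in both segments. It read 6.54, 8.37, 8.34 and 12.74 in proximal controls and 9.63, 8.0, 8.44 and 12.73 in distal controls. With antibiotics it read 8.08, 9.55, 10.34 and 10.69 in the proximal and 7.51, 8.18, 7.84 and 10.45 in distal samples. No other array came within 2 log2 units of the values of piglet 92. The difference was -1.20 (SE 1.19, limma adjusted p = 0.685) in distal and 0.67 (SE 1.19, adjusted p = 0.871) in proximal tissue. USP18, the protease that removes ISG15 and damps the receptor, lay between 6.71 and 10.66, with differences of 0.52 (SE 0.71, adjusted p = 0.787) in distal and 1.12 (SE 0.71, adjusted p = 0.553) in proximal tissue.

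IFIT1, IFIT2 and IFIT3 encode tetratricopeptide proteins that bind foreign RNA ends and stop their translation, and they lie side by side on the reference assembly Sscrofa11.1. In distal controls IFIT1 read 9.75, 6.38, 7.38 and 11.11, and with antibiotics it read 5.00, 5.95, 6.05 and 7.78. In proximal tissue it read 6.92, 8.80, 8.26 and 10.41 in controls and 6.24, 8.09, 8.99 and 10.68 with antibiotics. Distal controls 83 and 92 lay above all treated arrays, while controls 88 and 89 lay among them. The distal difference was -2.46 (SE 1.06, 95% interval -4.72 to -0.21, limma adjusted p = 0.263), and the proximal one was -0.10 (SE 1.06, adjusted p = 0.985).

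The other IFIT genes had the same order of distal controls 92, 83, 89 and 88. IFIT3 read 9.86, 7.56, 7.88 and 11.05 in distal controls and 7.22, 7.23, 7.71 and 8.29 with antibiotics, and 5.99, 8.40, 8.04 and 9.54 in proximal controls and 7.40, 8.06, 8.29 and 9.96 with antibiotics. IFIT2 read 7.84, 5.94, 7.69 and 10.60 in distal controls and 5.73, 5.22, 7.41 and 6.92 with antibiotics, and 6.87, 5.21, 7.51 and 9.40 in proximal controls and 5.35, 7.32, 7.64 and 9.75 with antibiotics. In proximal tissue the treated array 98 was at least as high as control 92 for all 3 IFIT genes. The distal differences were -1.47 (SE 0.80, limma adjusted p = 0.400) for IFIT3 and -1.70 (SE 1.04, adjusted p = 0.470) for IFIT2, and the proximal ones 0.43 (SE 0.80, adjusted p = 0.873) and 0.27 (SE 1.04, adjusted p = 0.947).

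The probe sets of IFIT1 disagreed in size. Against -2.46 for the probe set used, the other IFIT1 probe sets differed by -2.86 and -0.35 in distal tissue (limma adjusted p = 0.300 and 0.809). Of the other IFIT2 probe sets, 1 differed by -1.83 (adjusted p = 0.420) and 1 was at the floor on all 16 arrays. Piglet 92 in distal tissue gave the highest of 16 values for each IFIT1 probe set and for both IFIT2 probe sets above the floor.

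OAS1, which makes the short oligoadenylates that activate RNase L, was higher with antibiotics in both segments by sign, as were USP18 and ISG12(A). It read 9.99, 11.37, 10.66 and 11.11 in proximal controls and 11.74, 11.63, 12.25 and 11.40 with antibiotics. The distal values were 11.29, 11.00, 9.60 and 11.38 in controls and 11.50, 11.48, 10.93 and 11.83 with antibiotics. In proximal tissue all 4 antibiotics arrays lay above all 4 controls, the narrowest gap being between control 88 and treated array 98. OAS1 was the 1 gene of 18 with that order, which 1.31% of all tested probe sets had. The difference was 0.97 (SE 0.38, 95% interval 0.16 to 1.79, limma adjusted p = 0.319) in proximal and 0.62 (SE 0.38, adjusted p = 0.478) in distal tissue. EIF2AK2, which encodes the kinase PKR that halts translation on double-stranded RNA, lay between 9.33 and 11.75 and differed by 0.21 (SE 0.52, adjusted p = 0.897) in distal tissue.

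ISG20, a 3′ to 5′ exonuclease that degrades single-stranded RNA, was the gene that passed. In distal controls it read 8.82, 6.95, 8.18 and 9.28, and with antibiotics it read 6.48, 5.65, 5.50 and 6.68. The 4 treated arrays lay below the 4 controls, with 6.95 in control 88 as the lowest control and 6.68 in piglet 95 as the highest treated value. ISG20 was the 1 gene of 18 with that order, against 6.31% of all tested probe sets. The difference was -2.23 (SE 0.54, 95% interval -3.37 to -1.09, limma adjusted p = 0.0428).

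In proximal tissue ISG20 read 7.17, 6.87, 7.16 and 8.73 in controls and 5.41, 6.51, 5.95 and 7.36 with antibiotics. There treated array 98 lay above 3 of the 4 controls, and the difference was -1.18 (SE 0.54, 95% interval -2.32 to -0.03, limma adjusted p = 0.375). The distal minus proximal difference of the antibiotic effects was -1.06 (SE 0.76, adjusted p = 0.881). Over the 30 alternative fits the distal adjusted p ran from 0.00168 to 0.153. Of the distal arrays, the call was lost without each one except control 88 (adjusted p = 0.12, 0.0761 and 0.153 without controls 83, 89 and 92, and 0.076, 0.13, 0.112 and 0.0649 without treated arrays 85, 86, 87 and 95), and also without control proximal array 83 (0.0534) and antibiotics proximal array 95 (0.0564). With both arrays of piglet 92 left out the ISG20 difference was -1.91 (SE 0.49, adjusted p = 0.1).

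RSAD2 encodes viperin, which makes a chain-terminating nucleotide, and its neighbour on Sscrofa11.1 is CMPK2. It read 3.65, 7.89, 7.46 and 10.63 in proximal controls and 7.98, 9.13, 9.06 and 9.59 with antibiotics. The distal values were 8.28, 6.25, 6.74 and 11.73 in controls and 6.11, 6.68, 8.36 and 8.61 with antibiotics. In proximal tissue the treated arrays were close together and lay between control 88 and control 92. The difference was 1.54 (SE 1.26, limma adjusted p = 0.669) in proximal and -0.81 (SE 1.26, adjusted p = 0.819) in distal tissue.

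MX1, a dynamin-like GTPase that traps viral ribonucleoproteins, lies beside MX2 on Sscrofa11.1. It read 5.23, 6.50, 6.06 and 10.99 in proximal controls and 7.40, 7.10, 8.38 and 7.63 with antibiotics. The distal values were 6.29, 5.74, 7.94 and 10.68 in controls and 6.46, 7.17, 6.71 and 8.58 with antibiotics. All 4 treated proximal arrays lay above 3 of the controls and below the fourth, piglet 92. The difference was 0.43 (SE 1.12, limma adjusted p = 0.913) in proximal and -0.43 (SE 1.12, adjusted p = 0.901) in distal tissue.

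PARP9 encodes an ADP-ribosyltransferase-like partner of DTX3L, its neighbour on Sscrofa11.1. It read 10.03, 9.09, 10.05 and 10.72 in distal controls and 8.74, 8.34, 8.68 and 9.54 with antibiotics. In proximal tissue it read 7.37, 9.72, 8.95 and 9.74 in controls and 8.96, 9.22, 10.12 and 9.21 with antibiotics. In distal tissue 3 of the 4 controls lay above all treated arrays and control 88 lay below treated array 95. The distal difference was -1.15 (SE 0.48, 95% interval -2.17 to -0.12, limma adjusted p = 0.252), and the proximal one was 0.43 (SE 0.48, adjusted p = 0.766).

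IFI44L, a cytoplasmic protein of the interferon response, lay between 8.31 and 11.82 and differed by -0.94 (SE 0.63, limma adjusted p = 0.523) in distal tissue. ISG12(A), the pig gene for the mitochondrial protein IFI27, lay between 8.61 and 14.07, the widest values being control proximal array 83 and control distal array 92. It differed by 1.53 (SE 0.83, adjusted p = 0.470) in proximal and 0.15 (SE 0.83, adjusted p = 0.956) in distal tissue.

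**Figure D4:**
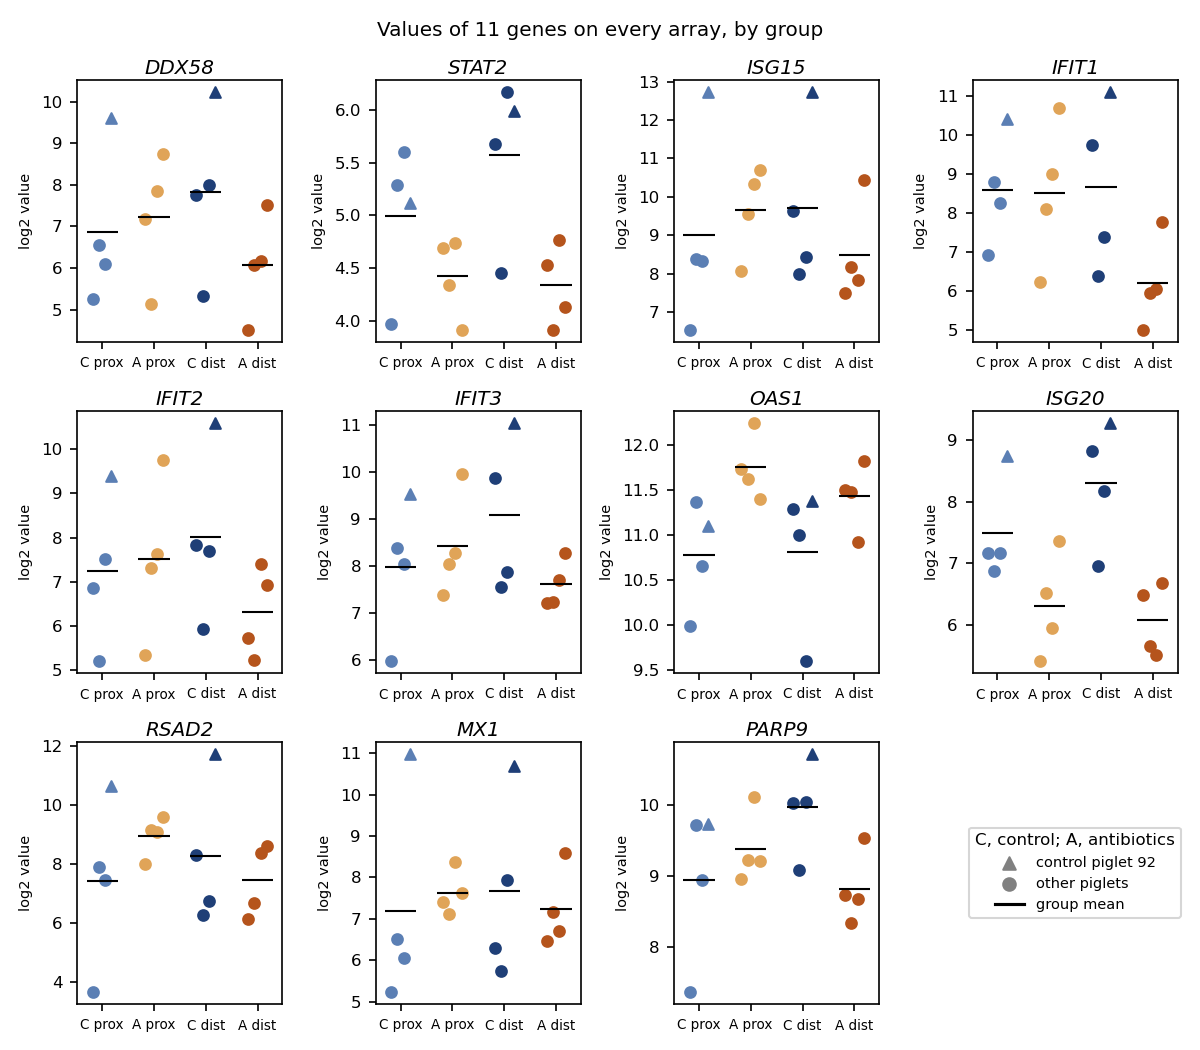
Log2 values (vertical axes, scaled per gene) of 11 genes on every array, by group (C, control; A, antibiotics; prox, proximal; dist, distal), with triangles for control piglet 92, circles for the other piglets and a bar at each group mean. For ISG20 the 4 distal antibiotics arrays lie below the 4 distal controls, for OAS1 the 4 proximal antibiotics arrays lie above the 4 proximal controls, and elsewhere the groups overlap.

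Over the 18 tested genes, antibiotics in distal tissue lowered 1 by limma's test (ISG20) and raised 0, while 2.12% of all 11538 probe sets passed in either direction and 1.1% as lower. In sign 14 of 18 were lower, against 49.6% of all tested probe sets, with a median difference of -0.87 against 0.00 over all tested probe sets. At an unadjusted p under 0.05 there were 4 (ISG20, IFIT1, STAT2 and PARP9), against 15.8% of all probe sets. With both arrays of piglet 92 left out, a fit added after the values had been seen, 0 of 18 passed (3 at an unadjusted p under 0.05, against 11.6% of all probe sets, of which 1.08% passed), 10 of 18 were lower, and the median was -0.14. ISG15 then differed by -0.19, RSAD2 by 0.35, MX1 by 0.57 and USP18 by 1.13 (limma adjusted p = 0.964, 0.944, 0.793 and 0.308).

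In proximal tissue 0 of 18 passed limma's test (0.147% of all probe sets did), and 2 had an unadjusted p under 0.05 (ISG20 lower and OAS1 higher; 12.9% of all probe sets). In sign 11 of 18 were higher, whereas 56.8% of all tested probe sets were lower. The median was 0.39 against -0.07 over all tested probe sets. The size and direction of this median depended on which arrays were kept. It was 0.97 without both arrays of piglet 92, with 15 of 18 higher, 0 past the threshold (0.0173% of all probe sets passed) and 7 at an unadjusted p under 0.05 (7% of all probe sets). It was -0.21 without control proximal array 83 and -0.06 without antibiotics proximal array 98. Keeping only the animals with both segments removes that same proximal array 98 and gave the same -0.06.

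The effect of antibiotics was not shown to differ between segments. For the distal minus proximal difference of the effects 0 of 18 passed limma's test (0.191% of all probe sets did), 1 had an unadjusted p under 0.05 (PARP9, -1.58, SE 0.68, adjusted p = 0.685; 6.62% of all probe sets), and that was the lowest adjusted p. In sign 16 of 18 differences were negative, against 43.4% of all tested probe sets, with a median of -0.98 against 0.08 over all tested probe sets.

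**Figure D5:**
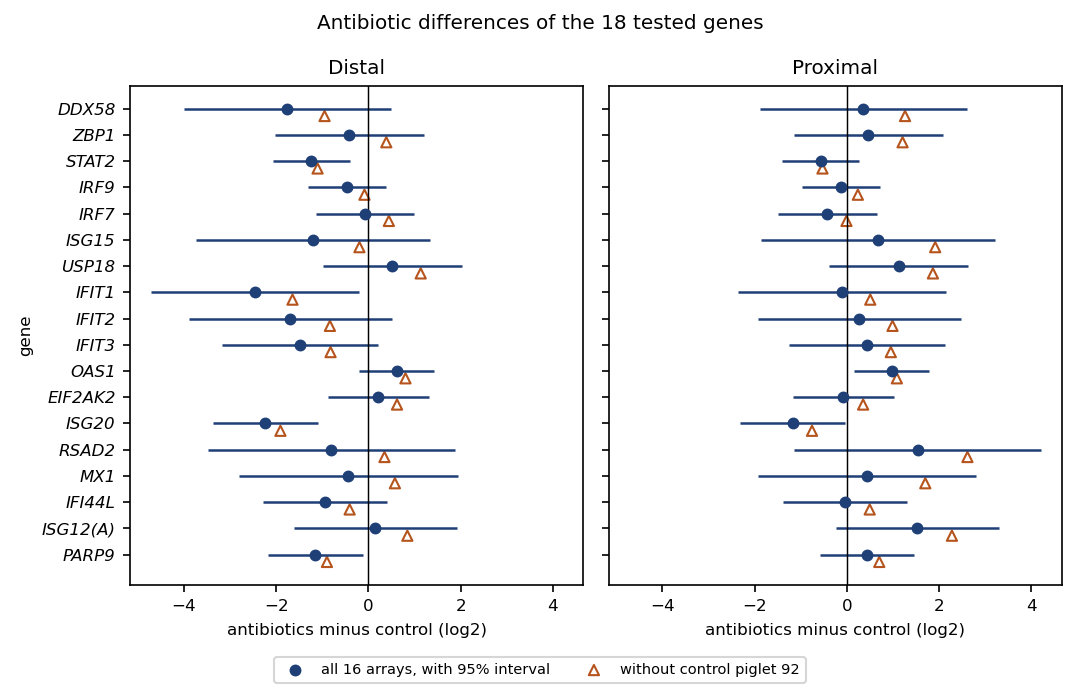
Antibiotics minus control (horizontal axis, log2) for the 18 tested genes in distal and proximal tissue, as filled circles with 95% intervals from the fit over 16 arrays, and as open triangles without both arrays of control piglet 92. The triangles lie to the right of the circles for all 18 genes in both segments. The distal intervals of ISG20, IFIT1, STAT2 and PARP9 lie below 0, and of the proximal ones ISG20 lies below and OAS1 above 0. The intervals are not adjusted for the number of probe sets.

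Between segments of the saline controls 0 of 18 passed limma's test (0.364% of all probe sets did), and 2 had an unadjusted p under 0.05, PARP9 and ZBP1 (7.99% of all probe sets). In sign 17 of 18 were higher in distal tissue, whereas 51% of all tested probe sets were lower. The median was 0.68 against -0.01 over all tested probe sets. ZBP1 had the widest difference, 2.13 (SE 0.76, adjusted p = 0.377): it read 2.62, 3.50, 3.67 and 6.22 in proximal and 6.03, 4.86, 5.06 and 8.55 in distal controls, higher in distal tissue in each of the 4 piglets. The median was -0.04 without control distal array 92 alone. Without both arrays of piglet 92 it was 0.74, with 15 of 18 genes higher in distal tissue and ZBP1 at 2.06 (SE 0.43, limma adjusted p = 0.113). Under antibiotics 0 of 18 passed (5.25% of all probe sets did), and 1 had an unadjusted p under 0.05, against 17% of all probe sets. It was IFIT1 (-2.31, SE 1.06, limma adjusted p = 0.280). In sign 13 of 18 were lower in distal tissue, against 44.7% of all tested probe sets, and the median was -0.41 against 0.05. These comparisons use the same arrays as the antibiotic comparisons.

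The interferon genes themselves were dim on nearly all arrays. Of 12 listed ligand genes 4 had a probe set and 0 were bright enough to be tested. IFNB1 and IFN-DELTA-1 were under 2.5 on all 16 arrays, and IFNA1 lay between 4.31 and 4.62. Piglet 92 read 4.31, the lowest IFNA1 value, in both segments. The other proximal controls shared this value, so it does not set piglet 92 apart from them. IFNG was above 5 on 1 array, control distal 83 (6.35), and at 2.14 and 2.17 in piglet 92. Of 17 listed sensors and adaptors 6 had a probe set and only TBK1 was tested, and it did not pass (distal difference -0.28). Of 6 negative regulators 2 were tested, PIAS1 and PTPN2, and neither passed.

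Of the 7 tested genes for receptors and their kinases, 2 fell in distal tissue with antibiotics: the interferon receptor subunit IFNAR2 (-1.63, SE 0.35, limma adjusted p = 0.0243) and the kinase JAK2 (-1.34, SE 0.28, adjusted p = 0.0197). Piglet 92 was the highest control for 3 of the 7 in each segment. As background for this list and those that follow, 1.1% of all tested probe sets were called lower in distal tissue, and 0.147% passed in proximal tissue. Array 92 was the highest control for 17.1% of all tested probe sets in distal and 24.9% in proximal tissue. IFNAR2 read 7.90, 6.65, 7.90 and 7.57 in distal controls and 6.01, 5.24, 6.43 and 5.82 with antibiotics. The other subunit, IFNAR1, differed by -1.24 (SE 0.53, adjusted p = 0.263).

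Of 5 tested transcription factors outside the set, 1 fell in distal tissue, IRF1 (-2.06, SE 0.39, limma adjusted p = 0.0101), and piglet 92 was the highest control for 1 of the 5 in distal and 3 in proximal tissue. Of 9 tested antiviral effectors outside the set, 1 fell in both segments, SAMHD1, an enzyme that depletes nucleotides (-2.25, SE 0.42, adjusted p = 0.00986 in distal and -2.70, SE 0.42, adjusted p = 0.0187 in proximal tissue). Piglet 92 was the highest control for 4 of these 9 in distal and 3 in proximal tissue. PARP12, another ADP-ribosyltransferase induced by interferon, was among them, at 7.81, 8.38, 8.36 and 9.55 in proximal and 8.80, 7.79, 8.91 and 10.03 in distal controls.

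Of the genes typical of interferon gamma 9 were tested, and 6 fell in distal tissue with antibiotics (GBP1, GBP2, IRF1, UBD, TAP1 and PSMB8) and 0 in proximal tissue. Among all tested probe sets 1.1% were called lower in distal tissue. The list's distal median was -2.06 against -0.87 for the 18 antiviral genes. Piglet 92 was the highest distal control for 2 of the 9 (17.1% of all tested probe sets) and the highest proximal control for 4 (24.9%). GBP1, a GTPase that attacks intracellular microbes, read 13.54, 11.19, 13.70 and 13.12 in distal controls and 7.62, 7.21, 8.37 and 7.81 with antibiotics. All 4 of its distal controls lay above the treated arrays. Not every gene of the list did so: for CXCL9 control distal array 88 lay below all treated arrays, and for WARS the groups overlapped. The antiviral genes were mixed too. Distal ISG15 and MX1 values of controls 83, 88 and 89 lay below the highest treated array. ISG20 separated fully in distal tissue, and for STAT2 and PARP9 only control 88 overlapped the treated arrays. The difference between the lists was not tested.

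Several leukocyte lists also moved with the distal groups, where 1.1% of all tested probe sets were called lower with antibiotics. The mean of 7 macrophage and monocyte markers was 6.51 to 6.77 in distal controls and 4.65 to 5.32 with antibiotics, and 2 of the 5 tested fell (CD163 and C1QC), while CD14 and ITGAM were at the floor. The mean of 5 general leukocyte markers was 6.70 to 7.15 in distal controls and 4.85 to 6.32 with antibiotics, and 2 of the 4 tested fell. The mean of 5 neutrophil markers was 3.66 to 6.22 and 2.52 to 2.63, and both tested markers fell. In proximal tissue this neutrophil mean was 3.74 to 5.42 in controls and 2.57 to 3.11 with antibiotics. S100A9 also fell there (limma adjusted p = 0.0435), with treated arrays 86 and 87 near the floor at 2.29 and 2.28. The proximal macrophage means (6.36 to 7.03 and 5.10 to 6.47) and general leukocyte means (6.15 to 8.19 and 5.54 to 6.67) overlapped, with 0 tested markers called. Of the T and NK cell markers 0 of 2 tested passed, with list means of 2.65 to 3.30 in distal controls and 2.44 to 2.94 with antibiotics, while CD3E, CD4 and PRF1 were at the floor. The 1 tested B and plasma cell marker, JCHAIN, did not pass (0.01). The part of these cells in the distal difference of ISG20 was not tested.

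By list means, piglet 92 was the highest control in proximal tissue for 6 of the 7 pathway lists, all but the ligands, and in distal tissue for 2 of 7, the sensors and adaptors and the other antiviral effectors. These means include dim genes. In the sensor list TLR8, TLR9, MAVS and TRAF6 were at the floor, and proximal control means ran only from 3.58 to 3.66. Of the 2 tested negative regulators piglet 92 was the highest proximal control for 0. Over all tested probe sets array 92 was the highest control for 24.9% in proximal and 17.1% in distal tissue. Among the 9 cell marker lists piglet 92 was the highest control for 1 in each segment, the macrophage list. Its leukocyte mean, 7.25 in proximal and 6.70 in distal tissue, was within the proximal control range of 6.15 to 8.19 and was the lowest distal control value. Its macrophage mean was 7.03 and 6.77, where the other controls began at 6.36 in proximal and 6.51 in distal tissue, and the part of these cells in the pattern of piglet 92 was not tested. The mean of 4 plasmacytoid dendritic cell markers, the cell type known for making most interferon alpha, was 6.13 and 6.20, inside the control ranges of 5.22 to 6.27 and 5.68 to 6.44. That list holds IRF7, a gene of the antiviral set, and TCF4 was at the floor. The 5′ minus 3′ signal of piglet 92 was -3.49 and -4.27, inside the control ranges of -4.76 to -2.70 and -4.85 to -3.72.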

How the data were processed

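Total RNA of 16 tissue samples was labelled with a 3′ IVT Express kit and hybridised to Affymetrix porcine arrays, per the labels' protocols. Per the submitters' processing notes the tools were GCOS 1.2, GCRMA and limma, with order and settings not given here. The authors deposited the GCRMA output as log2 values of each probe set. GCRMA pulls weak signal to a floor, so differences that reach the floor are poorly sized.

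The maker's 124 controls were dropped from the 24123 probe sets. The annotation gave 1 gene for 10069, several for 198 and none for 13732, and no gene was named from a probe set with several. Probe sets above 5 on at least 4 arrays were tested, 11538 in all. Group means over all 16 arrays were fitted with limma 3.58.1 (lmFit, eBayes) in R 4.3.3, for the antibiotic effect in distal and in proximal tissue, their difference, and the segment difference in each treatment. Benjamini-Hochberg adjustment ran over all 11538, and 0.05 was the threshold. The fits were tested on simulated data with independent noise on each array, which held no animals shared between segments and no outlying piglet. The number of arrays limits the precision. This fit had no block for the animal, so the 2 arrays of a piglet counted as separate. Its p-values measure the spread between arrays within groups, which came from piglets of 2 litters. Comparisons between segments were thus tested unpaired, with the animal as a block among the alternatives.

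The genes and lists were chosen with earlier results of these data known. Values on every array are given for genes past the threshold in any comparison, the 8 with the largest moderated t in distal tissue and the 4 with the largest SD among distal controls. IFNAR1, ZBP1 and PARP12 were given in more detail after their values were seen. Sample numbers were read as the animal's. As a check of this pairing, the residuals of the 2 segments of a piglet correlated at 0.0293 to 0.526 across probe sets, over 0.1 for 5 of 7 piglets.

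Alternatives were no filter, a filter at 7, array quality weights, equal array medians, quantile normalization, eBayes with trend and robust settings, the mean of a gene's probe sets, only the arrays compared, a random (statmod 1.5.0) or fixed replicate block for the animal, only animals with both segments, the 5′ minus 3′ difference or the position along the gut (from 18 probe sets) as a covariate, an adjusted p of 0.10, and each array left out. Leaving out both arrays of piglet 92 was added after seeing the data. A change of sign was counted as a reversal where the value as reported was called or lay over 1 SE from 0. Plots used Python 3.11.15 and matplotlib 3.10.9.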

Additional observations from a re-analysis of the deposited data

Results flagged for a closer look

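In groups of 4 arrays, 6 of 79 had an array far from the other 3 by Dixon's criterion (gap over range), where chance gives about 1 in 20. In 4 of the 6 the array was that of control piglet 92. It stood apart for ISG20 in proximal controls (8.73 against 7.17 for the nearest, ratio 0.838), for MX2 in proximal controls (3.34 against 2.97, ratio 0.858, both values low), for XAF1 in proximal controls (7.05 against 2.81, ratio 0.931) and for USP18 in distal controls (10.66 against 8.35, ratio 0.896). The other two were treated arrays: antibiotics distal array 95 for IFI44L (10.23 against 9.08, ratio 0.851) and antibiotics proximal array 98 for XAF1 (5.61 against 2.97, ratio 0.925).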

How the results depend on the processing

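The number of the 18 antiviral genes past the threshold in distal tissue, 1 as reported, was 0 with no filter, over animals with both segments only, with the 5′ minus 3′ difference or the position along the gut as a covariate, and without both arrays of piglet 92. It was 6 with array quality weights (ISG20, IFIT1, IFIT2, IFIT3, STAT2 and PARP9), and 0 to 2 when 1 array was left out, with 2 (ISG20 and STAT2) without control distal array 88. The proximal count of 0 was 1 with array quality weights (OAS1, 1.33, limma adjusted p = 0.0345), and the distal against proximal count under antibiotics of 0 was 2 with them (IFIT1 and PARP9). The share of all probe sets past the threshold with these weights is not given here, so the counts of 6, 1 and 2 have no background beside them. Over the fits with a single array removed, the median distal antibiotic difference ran from -1.34 (control 88 removed) to -0.14 (control 92 removed), and the proximal one from -0.21 to 0.97. The cause of these changes was not tested. With the animal as a random replicate block (correlation 0.172) the distal median was -0.83 and ISG20 passed (limma adjusted p = 0.0421), and with a fixed replicate block the median difference of the effects was -0.87. The block changed no call. ISG20 was lower in distal tissue under each of the 30 alternatives, whereas MX1 and RSAD2, within 1 SE of 0 as reported, changed sign to 0.57 and 0.35 without both arrays of piglet 92. The distal differences of IFIT1 and DDX58 did not pass the adjusted threshold in the fit as reported. Without both arrays of piglet 92 they were -1.65 and -0.95 (limma adjusted p = 0.587 and 0.765).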

Other observations

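The array carries RSAD2 a second time, among the maker's control probe sets, as a trio placed along the transcript. The 3′ probe set of RSAD2 lay between 2.84 and 9.87, highest in control distal array 92 (8.42 in proximal tissue of that piglet). The middle one lay between 2.18 and 5.98, again highest in control distal array 92, with 13 arrays under 2.5, and the 5′ one was at the floor on 16 arrays. The other IFI44L probe sets reached their highest values, 10.28 and 6.57, on the same array.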
